A study of Homo sapiens with 12 samples.

Results

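The insulin-like growth factor (IGF) binding proteins, the ligand gene IGF2 and its neighbour H19 were examined as a group of 9 genes out of 60617 listed in each count table. They were taken by gene symbol: IGFBP1 to IGFBP7, IGF2 and H19. RNA-seq had been done on 12Z cells, an immortalized epithelial line from endometriosis, in 4 groups of 3 libraries. All cells received non-targeting siRNA. They were transfected with pBabe, empty in control cells and carrying PIK3CA H1047R in H1047R cells. PIK3CA encodes p110α, a catalytic subunit of phosphoinositide 3-kinase, and H1047R activates its kinase domain. After 4 h without serum, vehicle or 100 nM insulin was added for 24 h, and each group is named by plasmid and then treatment. The plasmid was introduced transiently into 1 cell line, so the libraries may hold a mix of transfected and untransfected cells of that line.

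IGF2 is a growth factor that signals through the IGF1 receptor and the insulin receptor. IGFBP1 to IGFBP6 bind IGFs with high affinity outside the cell, where they can carry the ligand or keep it from its receptor, and proteases such as PAPPA release it again. IGFBP7 binds IGFs weakly. In endometrium, IGFBP1 is best known as a product of decidualized stromal cells, and insulin is a classical repressor of IGFBP1 in liver. H19 is an imprinted long noncoding RNA beside IGF2, and it is also the precursor of miR-675.

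Of the 9 genes, 7 averaged at least 1 count per library and were tested. IGFBP1 and IGF2 did not and had 8 counts each over all 12 libraries. For the 3 genes whose response to insulin differed most between the plasmids, IGFBP3, IGFBP4 and IGFBP6, the start-site region is shown, from 250 bases before to 50 after the RefSeq start (GRCh38.p14, 5′ to 3′). Both strands were searched for CAAAACA, the core of the insulin response sequence, for TGTTTAC, a FOXO core, and for TATAAA. The last motif was added after the data had been seen. Capitals mark matches.
IGFBP3 (chr7:45921223-45921522, minus strand): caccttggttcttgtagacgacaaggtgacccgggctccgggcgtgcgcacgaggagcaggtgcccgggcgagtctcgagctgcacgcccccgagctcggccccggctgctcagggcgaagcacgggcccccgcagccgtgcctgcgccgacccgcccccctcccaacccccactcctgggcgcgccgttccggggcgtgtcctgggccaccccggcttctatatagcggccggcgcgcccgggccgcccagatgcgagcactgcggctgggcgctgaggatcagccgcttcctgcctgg
IGFBP4 (chr17:40443200-40443499, plus strand): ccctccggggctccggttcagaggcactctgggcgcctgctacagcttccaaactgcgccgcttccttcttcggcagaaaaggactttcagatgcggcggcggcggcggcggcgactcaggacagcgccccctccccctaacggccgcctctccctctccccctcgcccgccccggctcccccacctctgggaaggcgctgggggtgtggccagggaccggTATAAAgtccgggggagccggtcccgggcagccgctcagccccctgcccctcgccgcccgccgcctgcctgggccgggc
IGFBP6 (chr12:53097417-53097716, plus strand): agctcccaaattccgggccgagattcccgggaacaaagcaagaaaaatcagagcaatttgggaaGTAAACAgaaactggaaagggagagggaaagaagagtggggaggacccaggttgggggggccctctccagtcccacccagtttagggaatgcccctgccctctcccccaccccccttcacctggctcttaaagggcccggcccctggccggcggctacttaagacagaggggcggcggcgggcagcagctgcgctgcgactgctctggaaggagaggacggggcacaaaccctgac
The IGFBP4 region held TATAAA from base -29 to -24 before the start. On either strand and at any position, this motif was found in 11.5% of the 35116 RefSeq promoters. The IGFBP6 region held the FOXO core on the opposite strand, from base -186 to -180. Counted the same way, on either strand, 3.42% of all promoters held this core. No match was found in the IGFBP3 region or in the table's regions for IGFBP2, IGFBP5 and H19, and 4.92% of all promoters held CAAAACA on either strand. The IGFBP3 and IGFBP4 regions were rich in G and C (74.7% and 74%), above 89.7% and 88.5% of promoters, whereas those of IGFBP6 (61.7%) and IGFBP5 (59%) were near the middle. IGFBP1, IGFBP7 and IGF2 had no entry.

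Total gene counts were 30071951 to 37918025 per library in H1047R insulin and 21483124 to 29255708 in the other 3 groups. Reads placed at several sites made up 8.48 to 9.51% in H1047R insulin and 13.6 to 15.4% in the other 3 groups. The part of this in the results was not tested. The transfected gene was checked first. PIK3CA stood at 80.9 to 89.0 CPM (gene counts scaled to a common library size with TMM factors) in the 6 control libraries, at 312, 180.1 and 215 CPM in H1047R vehicle, and at 734, 714 and 715 CPM in H1047R insulin. H1047R insulin was 3.06-fold above H1047R vehicle, so insulin and a higher PIK3CA level cannot be told apart in H1047R cells. H1047R vehicle replicate 1 stood apart from replicates 2 and 3, with RSAD2, an interferon-stimulated gene, at 12.5 CPM against 2.22 and 3.40 CPM. Whether calls of the 9 genes held without this library is stated below. Sizes of change without it are given for some of them only, and those of other genes are given with it. Of 10 epithelial markers, 8 averaged at least 1 CPM. The keratin genes KRT8, KRT18 and KRT19 averaged 657 to 1428 CPM, whereas the epithelial adhesion genes CDH1 and EPCAM averaged 1.74 and 0.599 CPM. All 10 fibroblast or stromal markers averaged at least 1 CPM, led by COL1A1 and VIM. Their summed level was 5836 to 6067 CPM in H1047R insulin and 7828 to 8397 CPM in the other groups. With insulin in H1047R cells 9 of the 10 fell, among them DCN (76.5 ± 13.4 to 9.19 ± 1.43 CPM), LUM (317 ± 44.2 to 80.6 ± 9.96 CPM) and COL3A1 (1951 ± 114 to 909 ± 27.6 CPM), while VIM rose (2043 ± 124 to 2291 ± 50.7 CPM), and the part of this in the results was not tested. Fewer cells of a type and less RNA per cell cannot be told apart in such bulk samples. Of 4 endothelial and 4 leukocyte markers, the summed levels stayed at or below 9.57 and 6.52 CPM, and CD3E was at 0.

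Differential expression was called with edgeR at a false discovery rate (FDR) below 0.001 over 22756 genes. These include many genes below 1 CPM, which held few of the calls with insulin. In H1047R cells 2242 genes rose and 2229 fell with insulin, and 2143 and 2211 when genes had to reach 1 CPM in 3 libraries. Under both plasmids, shares of all genes called with insulin thus lie below those of better expressed genes. Changes are log2 fold changes ± SE, and group values are means ± SD (n = 3 libraries).

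To compare the genes with each other, levels were divided by exon length (CPM per kb). IGFBP4, the main IGF binding protein transcript of these cells, came first in every group. Its level in control vehicle was 137 ± 2.79 CPM per kb. IGFBP6, which prefers IGF2 over IGF1, followed at 40.1 ± 0.766 CPM per kb. IGFBP7 stood at 22.6 ± 1.22, IGFBP5 at 11.6 ± 0.169, IGFBP2 at 5.82 ± 0.609 and IGFBP3 at 3.99 ± 0.246 CPM per kb. H19 lay far below them at 0.257 ± 0.111 CPM per kb. Neighbours in this order did not overlap between libraries, apart from IGFBP1 and IGF2 at the bottom.
Among the 7 tested genes the order of the means changed only in H1047R insulin, where IGFBP3 passed IGFBP2. Neighbours came to overlap at 2 places in the other groups. IGFBP2 and IGFBP3 overlapped in control insulin (3.85 ± 0.373 and 3.80 ± 0.131 CPM per kb) and in H1047R vehicle. In H1047R insulin, IGFBP3 at 11.6 ± 0.102 CPM per kb lay above IGFBP2 at 4.73 ± 0.365 CPM per kb with no overlap. In the same group IGFBP7 and IGFBP5 overlapped, at 17.5 ± 0.762 and 16.5 ± 0.760 CPM per kb.

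**Figure D1:**
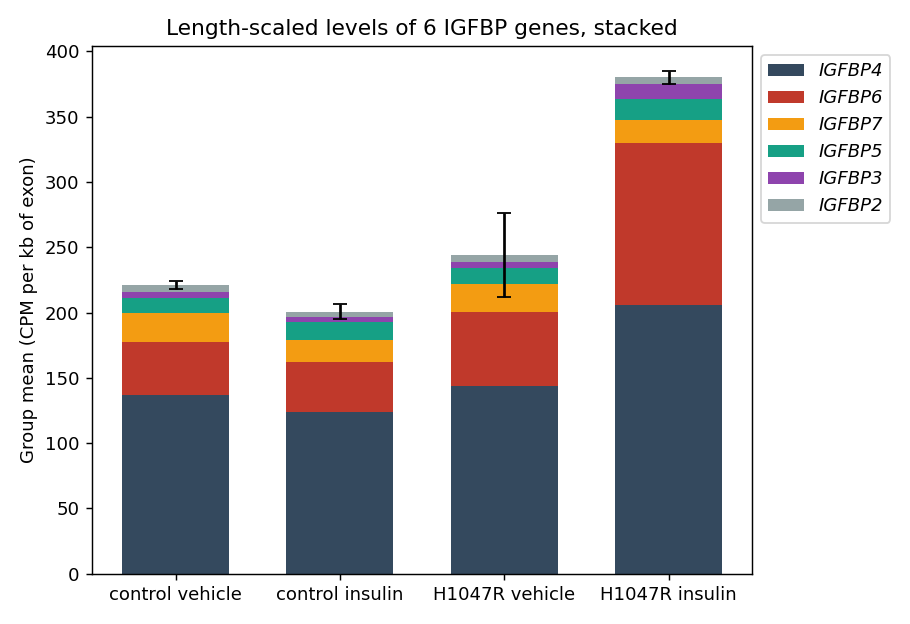
Mean length-scaled levels (CPM per kb of exon) of IGFBP2 to IGFBP7, stacked for each of the 4 groups, with the SD of the summed level over 3 libraries. The stack reaches 380 CPM per kb in H1047R insulin against 221, 201 and 244 in control vehicle, control insulin and H1047R vehicle, and the IGFBP6 layer grows the most as a share.

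The summed length-scaled IGFBP level was 221 ± 3.30 CPM per kb in control vehicle, 201 ± 5.55 in control insulin, 244 ± 32.2 in H1047R vehicle and 380 ± 4.81 in H1047R insulin. The 3 libraries of the last group lay between 375 and 384 CPM per kb, above all 9 others, of which H1047R vehicle replicate 1 was the highest at 281 CPM per kb. IGFBP4 made up 61.9 ± 0.431% of the sum in control vehicle and 54.1 ± 1.10% in H1047R insulin. IGFBP6 went from 18.1 ± 0.621% to 32.6 ± 1.09%, IGFBP3 from 1.80 ± 0.127% to 3.06 ± 0.0658%, and IGFBP7 from 10.2 ± 0.401% to 4.61 ± 0.251%. These shares are descriptions of transcript levels, with no test.

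**Figure D2:**
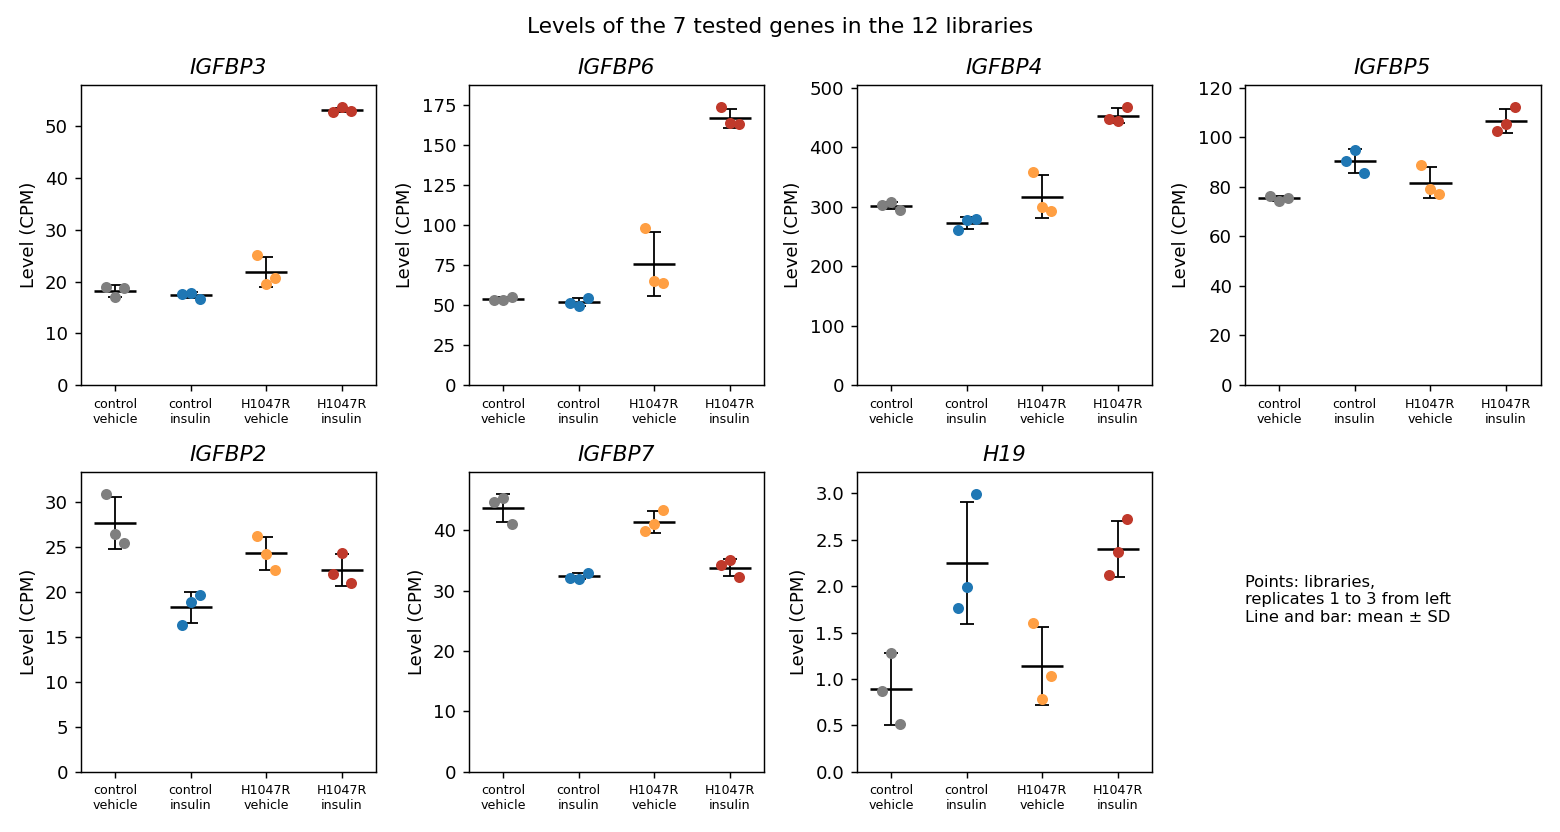
CPM of the 7 tested genes in each of the 12 libraries (points, replicates 1 to 3 from left) with group means and SD, on linear axes from 0. IGFBP3 and IGFBP6 stand apart in H1047R insulin, at 52.8 to 53.7 and 163 to 174 CPM, whereas H19 is higher with insulin under both plasmids.

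To see how control cells responded, control insulin was compared with control vehicle. IGFBP2 and IGFBP7 fell, IGFBP5 and H19 rose, and IGFBP3, IGFBP4 and IGFBP6, which include the most abundant members, were not called. Thus 4 of the 7 tested genes were called, 2 in each direction, where 1.63% of all genes tested were called, 0.483% as higher and 1.15% as lower. The median change of the 7 was -0.07, against 0.0037 over all genes.
IGFBP2, which can also bind integrins, was at 30.9, 26.4 and 25.4 CPM with vehicle and at 16.3, 18.9 and 19.6 CPM with insulin. Every insulin library lay below every vehicle library, and IGFBP2 fell by 0.60 (SE 0.0771, adjusted p = 4.89e-07), to 0.660 times its vehicle level. IGFBP7, a secreted protein of basement membranes and blood vessels, was at 44.6, 45.4 and 41.0 CPM with vehicle and at 32.2, 32.0 and 32.9 CPM with insulin. These groups did not overlap either, and the log2 fold change was -0.44 ± 0.0556 (adjusted p = 4.06e-07).
IGFBP5, a matrix-binding member, went from 76.3, 74.1 and 75.6 CPM to 90.6, 95.04 and 85.4 CPM. It rose by a factor of 1.20 (0.26 ± 0.0502, adjusted p = 0.000427), although its FDR ran from 0.00185 to 0.0137 in the 5 fits that left out any control library other than control insulin replicate 3. H19 was at 0.875, 1.28 and 0.513 CPM with vehicle and at 1.76, 1.99 and 2.99 CPM with insulin. It rested on 11 to 36 counts per vehicle library and 48 to 79 counts per insulin library. H19 rose 2.43-fold without overlap (1.28 ± 0.256, adjusted p = 0.000805), the largest fold in this comparison among the 7 genes, and leaving out control vehicle replicate 1 or 3 (FDR 0.00663 and 0.0140) or control insulin replicate 2 or 3 (FDR 0.00196 and 0.0209) ended the call.
IGFBP4 was at 303, 308 and 295 CPM with vehicle and at 262, 278 and 280 CPM with insulin. The insulin libraries were the lower ones, with no overlap between the groups, which held for 20.3% of all genes tested in one direction or the other, but the change did not pass (-0.15 ± 0.0478, adjusted p = 0.0667). IGFBP3 (-0.07 ± 0.0748, adjusted p = 0.745) and IGFBP6 (-0.06 ± 0.0849, adjusted p = 0.807) overlapped between the groups.

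The same treatment was then examined in H1047R cells, where H1047R insulin was compared with H1047R vehicle. IGFBP3, IGFBP6, IGFBP4, IGFBP5 and H19 rose and IGFBP7 fell, while IGFBP2 was not called. This made 6 of 7 genes called, 5 higher and 1 lower, where 19.6% of all genes tested were called, 9.85% higher and 9.8% lower. Libraries did not overlap for 6 of the 7, as for 44.8% of all genes tested. The median change of the 7 was 0.52, against -0.0006 over all genes. The 6 calls were also made without H1047R vehicle replicate 1.
IGFBP3, the main carrier of IGFs in serum, was at 25.0, 19.6 and 20.6 CPM with vehicle and at 52.8, 53.7 and 52.9 CPM with insulin. It rose 2.45-fold (1.29 ± 0.0645, adjusted p = 1.50e-19). IGFBP6 was at 98.5, 65.1 and 63.6 CPM with vehicle and at 174, 163.8 and 163 CPM with insulin. Replicate 1 was the high library of the vehicle group, and still lay well below all insulin libraries. IGFBP6 rose 2.21-fold (1.14 ± 0.0776, adjusted p = 1.89e-15), and by 1.4003 on the log2 scale without H1047R vehicle replicate 1.
IGFBP4 was at 359, 299.8 and 293 CPM with vehicle and at 448, 445 and 468 CPM with insulin. It rose 1.43-fold (0.52 ± 0.0473, adjusted p = 8.09e-12), and by 0.64 on the log2 scale without H1047R vehicle replicate 1. IGFBP5 went from 88.7, 79.1 and 77.2 CPM to 103, 105 and 112 CPM (0.39 ± 0.0491, adjusted p = 2.32e-08). For these 4 genes the lowest insulin library was above the highest vehicle library.
H19 was at 1.60, 0.779 and 1.04 CPM with vehicle and at 2.12, 2.37 and 2.72 CPM with insulin, from 20 to 38 and 65 to 105 counts per library. H19 rose 2.13-fold (1.09 ± 0.237, adjusted p = 0.000243). This call was lost without H1047R vehicle replicate 2 or 3 or H1047R insulin replicate 3 (FDR 0.0063, 0.00156 and 0.00300). IGFBP7 was at 39.9, 41.0 and 43.5 CPM with vehicle and at 34.2, 35.1 and 32.2 CPM with insulin, and fell by 0.29 (SE 0.0546, adjusted p = 2.92e-05, and FDR 0.00103 without H1047R insulin replicate 3). IGFBP2 was at 26.1, 24.2 and 22.5 CPM with vehicle and at 21.9, 24.3 and 21.0 CPM with insulin, groups that overlapped (-0.11 ± 0.0746, adjusted p = 0.262).

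Whether insulin acted differently under the 2 plasmids was tested directly, as the insulin effect in H1047R cells minus that in control cells. The difference was called for IGFBP3 (1.36 ± 0.0990, adjusted p = 5.66e-14), IGFBP6 (1.20 ± 0.115, adjusted p = 9.13e-11), IGFBP4 (0.66 ± 0.0673, adjusted p = 4.05e-10) and IGFBP2 (0.48 ± 0.107, adjusted p = 0.000674). Of all genes tested 9.07% were called, 4.58% as positive and 4.49% as negative. All 4 differences were positive, and all 4 were also called without H1047R vehicle replicate 1. They arose in different ways. IGFBP3, IGFBP6 and IGFBP4 rose in H1047R cells and were not called in control cells, while IGFBP2 fell in control cells and was not called in H1047R cells. The IGFBP2 difference lost its call in 7 of the fits without 1 library, in which its FDR ran from 0.00124 to 0.00627.
The differences for IGFBP5 (0.12, 95% interval -0.04 to 0.29), IGFBP7 (0.14, -0.04 to 0.32) and H19 (-0.19, -1.02 to 0.64) were not called, and the interval for H19 is wide at this depth.

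**Figure D3:**
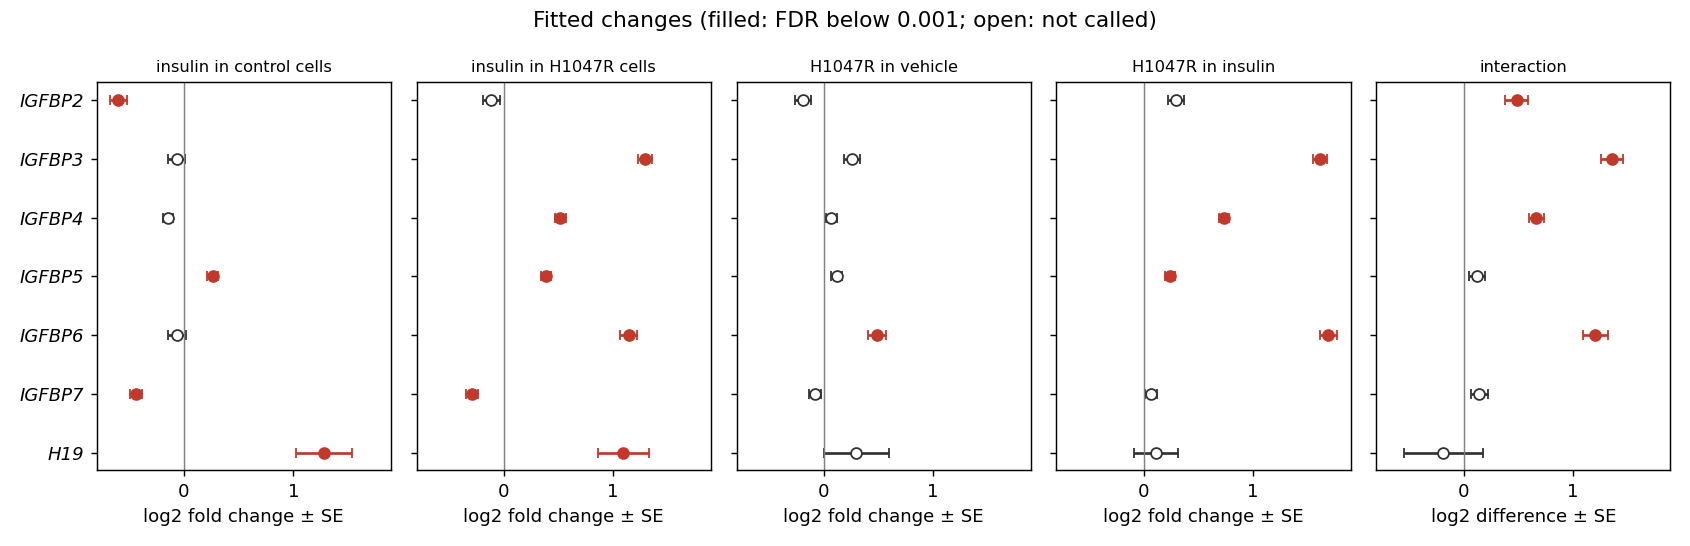
Log2 fold changes with SE (edgeR) of the 7 tested genes in the 4 comparisons and, at right, the difference of the 2 insulin effects; filled points passed FDR below 0.001. IGFBP3 and IGFBP6 lie near 0 for insulin in control cells and at 1.29 and 1.14 for insulin in H1047R cells, and H19 lies at 1.28 and 1.09.

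The effect of H1047R itself was examined without and with insulin. In vehicle, against the same control vehicle libraries as in the insulin comparison, 1 of 7 genes was called, where 0.158% of all genes tested were called, 0.141% as higher and 0.0176% as lower. IGFBP6 was at 53.4, 53.5 and 55.2 CPM in control vehicle and at 98.5, 65.1 and 63.6 CPM in H1047R vehicle (0.49 ± 0.0833, adjusted p = 0.000664). The groups did not overlap. The value leaned on H1047R vehicle replicate 1, the library with the highest PIK3CA of that group, and without it the change was 0.25 (FDR 0.00761). The call was also lost without any of the control vehicle libraries, with DESeq2 (adjusted p = 0.0544) and when genes had to reach 1 CPM in 3 libraries (FDR 0.0109). IGFBP3 (0.26 ± 0.0737, adjusted p = 0.0724) and IGFBP5 (0.12 ± 0.0508, adjusted p = 0.326) did not overlap between the groups but did not pass, and 14.4% of all genes tested did not overlap. IGFBP2, IGFBP4, IGFBP7 and H19 overlapped. Of the 7 tested genes all except IGFBP7 were highest in replicate 1 of the H1047R vehicle libraries, also IGFBP2, whose change with H1047R in vehicle was -0.19 ± 0.0755 (adjusted p = 0.27), and the part of the PIK3CA level in this was not tested.
In insulin, against the same control insulin libraries as above, 4 of 7 genes were higher in H1047R cells and 0 were lower by edgeR, 0 by DESeq2 and 0 at an unadjusted p below 0.05. Of all genes tested 23.5% were called, 11.4% as higher and 12% as lower. Libraries did not overlap for 5 of the 7, as for 48.5% of all genes tested. IGFBP6 was 3.23-fold higher (1.69 ± 0.0796, adjusted p = 1.10e-20) and IGFBP3 3.06-fold higher (1.61 ± 0.0654, adjusted p = 7.87e-23). IGFBP4 was 1.66-fold higher (0.73 ± 0.0475, adjusted p = 2.58e-16) and IGFBP5 1.18-fold higher (0.24 ± 0.0484, adjusted p = 7.92e-05, and FDR 0.00224 without control insulin replicate 3 and 0.00274 without H1047R insulin replicate 3). IGFBP2 missed the threshold at 0.30 ± 0.0762 (adjusted p = 0.00153) although its libraries did not overlap. It passed in 5 of the 8 other fits of all libraries or of these groups alone, for example with DESeq2 (adjusted p = 0.00099). It did not pass in any fit that left out a single library. IGFBP7 (0.06 ± 0.0553, 95% interval -0.06 to 0.19) and H19 (0.11 ± 0.202, -0.36 to 0.58) overlapped between the plasmids.

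IGFBP1 and IGF2 were at the edge of detection. IGFBP1 had 0 counts in all control insulin libraries, which allows up to 0.0360 CPM over that group at 3 counts, and 1, 3 and 1 counts in H1047R insulin. IGF2 had 0 counts in all control vehicle libraries, which allows up to 0.0392 CPM, and at most 3 counts in any other library. Any change in either gene was not detectable at this depth. For IGF2, 43.2% of exon bases are shared with other genes on the same strand, INS-IGF2 among them, and reads there are not counted for any gene. INS-IGF2 itself had 0 counts, and IGF2-AS, on the other strand, had 1 count. Among the tested genes IGFBP7 shares 18.3% of its exon bases with IGFBP7-AS1 and POLR2B on the other strand. When counts were taken without regard to strand, IGFBP7 was still called with insulin, at -0.42 in control cells and -0.33 in H1047R cells.

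The 9 genes lie at 6 places in the genome (hg38). IGFBP1 (chr7:45888360-45893660) and IGFBP3 (chr7:45912245-45921874) are 18585 bases apart and lie tail to tail, and IGFBP1 never exceeded 3 counts in a library. IGFBP2 (chr2:216632828-216664436) and IGFBP5 (chr2:216672105-216695549) also lie tail to tail, 7669 bases apart, and moved in opposite directions with insulin in control cells. IGFBP4 is at chr17:40443450-40457725, IGFBP6 at chr12:53097436-53102345, IGFBP7 at chr4:57030773-57110385, H19 at chr11:1995166-2004552 and IGF2 at chr11:2129112-2158391. Within 250 kb of the 9 genes, 34 other genes averaged at least 1 CPM, a window chosen after the data had been seen. With insulin in control cells 0 of them were called by edgeR, 1 by DESeq2 and 8 had an unadjusted p below 0.05. Of all genes tested 1.63% were called there by edgeR, so the 0 says little about these places. With insulin in H1047R cells 4 of the 34 rose and 6 fell, where 9.85% of all genes tested rose and 9.8% fell. In the window of IGFBP3, SEPTIN7P2, 146433 bases away, rose (0.72 ± 0.0758). In that of IGFBP4, RARA, a retinoic acid receptor 85807 bases away, rose (0.64 ± 0.0654). TOP2A, a topoisomerase of dividing cells 25554 bases from IGFBP4, fell (-0.34 ± 0.0338). Nearest to IGFBP6, SPRYD3 at 18032 bases was not called (0.10 ± 0.0656), and TNS2 at 33057 bases fell (-0.26 ± 0.0591). Farther from IGFBP6, the translation factor gene EIF4B at 55221 bases fell (-0.69 ± 0.0385), while KRT8 at 147482 bases was not called (-0.06 ± 0.0352). MRPL23, 10644 bases from H19, was not called with insulin under either plasmid (0.02 and -0.11), and the deposited counts gave MIR675, inside H19, 0 reads. All 73 bases of MIR675 lie in H19 exon on the same strand, and reads there are not counted for any gene, so the 0 says nothing about this precursor. The 2 mature RNAs of this precursor, shown because they are its other product, carry the following sequences with seed bases 2 to 8 in capitals. Libraries of this kind do not measure them.
hsa-miR-675-5p: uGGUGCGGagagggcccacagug
hsa-miR-675-3p: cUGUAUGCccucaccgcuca

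For each called member, the genes with the most similar profile were sought among 13301 other genes averaging at least 1 CPM, by the root mean square difference of centred log2 CPM over the 12 libraries. Genes close to IGFBP3 included IRAK2 (0.0558) and NOCT (0.0773), and NR1D1 (0.109), a circadian repressor, was among those close to IGFBP6. The IGFBP3 and IGFBP6 profiles themselves varied with an SD of 0.69 and 0.72 on the same log2 scale. IGFBP4 was closest to SLC43A3 (0.0492), IGFBP5 to the sterol feedback gene INSIG1 (0.0426), IGFBP7 to MAP3K7CL (0.0506) and IGFBP2 to SRPX2 (0.111). For H19 the nearest gene was EAF2 at 0.368. The SD was 0.75 for H19, which had 11 to 105 counts per library, and 0.25 for IGFBP2, so neither match was close for its spread.

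The rest of the IGF axis was followed in 9 lists of 124 genes, of which 108 were tested. With insulin, 2 rose and 13 fell in control cells (13.9% called) and 25 rose and 29 fell in H1047R cells (50% called), against 1.63% and 19.6% of all genes. As stated above, these shares of all genes lie below those of better expressed genes. The median changes of the 108 were -0.06 and -0.01, against 0.0037 and -0.0006 over all genes. With H1047R in vehicle, 2 rose, STC2 among them (0.32 ± 0.0554), and 0 fell by edgeR or DESeq2, with 8 lower at an unadjusted p below 0.05. Neither of the 2 calls was made without H1047R vehicle replicate 1 or without any of the control vehicle libraries.

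Among ligands and receptors, 3 of 6 genes were tested, and IGF1, INS and IGFALS were not. IGF1R was at 103, 98.9 and 106 CPM in control vehicle and at 74.4, 75.9 and 70.6 CPM in control insulin, and went from 93.7, 100.6 and 100.4 CPM to 69.9, 67.5 and 67.9 CPM in H1047R cells. IGF1R thus fell with insulin under both plasmids (-0.48 ± 0.0452 and -0.52 ± 0.0449), as did the insulin receptor gene INSR (-0.34 ± 0.0609 and -0.58 ± 0.0607). IGF2R, which clears IGF2, was not called (-0.04 ± 0.0399 and -0.12 ± 0.0398). H1047R against control cells gave 0 calls among the 3 by edgeR or DESeq2, with 0 at an unadjusted p below 0.05 in vehicle and 2 in insulin, where INSR was at -0.25 ± 0.0614 (adjusted p = 0.00102). The difference of the insulin effects also gave 0 calls by either tool, with 1 at an unadjusted p below 0.05. Among all genes tested, 0.158% were called with H1047R in vehicle, 23.5% with H1047R in insulin and 9.07% for the difference. With only 3 genes, 0 calls thus say little about the receptors.
Among 9 receptor adaptors and feedback genes, IRS2 (-0.50 ± 0.0769) and IRS1 (-0.34 ± 0.0609) fell with insulin in control cells. Over all genes tested, 1.63% were called there and 19.6% with insulin in H1047R cells. In H1047R cells 3 genes rose with insulin, GRB10, an adaptor that restrains the insulin and IGF1 receptors (1.76 ± 0.0733), the cytokine and growth hormone feedback gene SOCS2 (0.76 ± 0.105) and IRS1 (0.34 ± 0.0573). IRS1 thus moved in opposite directions, from 42.5 ± 1.26 to 33.6 ± 0.638 CPM in control cells and from 44.02 ± 5.45 to 55.5 ± 1.27 CPM in H1047R cells, and the difference was called (0.68 ± 0.0836).

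Proteases of the IGFBPs and their inhibitors were called in 4 of 20 genes with insulin in control cells and in 13 of 20 in H1047R cells (9 higher, 4 lower). The shares over all genes tested, which lie below those of better expressed genes, were 1.63% and 19.6%. PAPPA, a protease that cleaves IGFBP4, was at 15.3, 14.99 and 15.1 CPM in control vehicle and at 8.66, 7.46 and 8.87 CPM in control insulin (-0.86 ± 0.0897, adjusted p = 3.91e-09). In H1047R cells it was at 19.2, 16.005 and 16.6 CPM with vehicle and at 21.5, 18.7 and 18.3 CPM with insulin, which overlapped. The difference of the insulin effects was 1.04 ± 0.118 (adjusted p = 6.37e-09).
STC1, an inhibitor of PAPPA, rose under both plasmids, from 23.8 ± 1.54 to 37.6 ± 1.07 CPM in control cells (0.66 ± 0.0916) and from 31.1 ± 8.84 to 126 ± 1.11 CPM in H1047R cells (2.02 ± 0.0821). Its relative STC2, also an inhibitor of PAPPA, was at 82.4 ± 3.18 CPM in control vehicle, 92.8 ± 2.06 in control insulin, 103 ± 13.6 in H1047R vehicle and 197 ± 4.32 in H1047R insulin, and was called in vehicle against control cells (adjusted p = 0.000812). The insulin effect differed between plasmids for STC1 (1.35 ± 0.124) and, outside the rule for naming genes, for STC2 (0.77 ± 0.0766). The urokinase gene PLAU fell in control cells (-0.52 ± 0.0785) and rose in H1047R cells (1.31 ± 0.0687), and the collagenase gene MMP1 rose in H1047R cells (2.91 ± 0.277) from a low level.

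**Figure D4:**
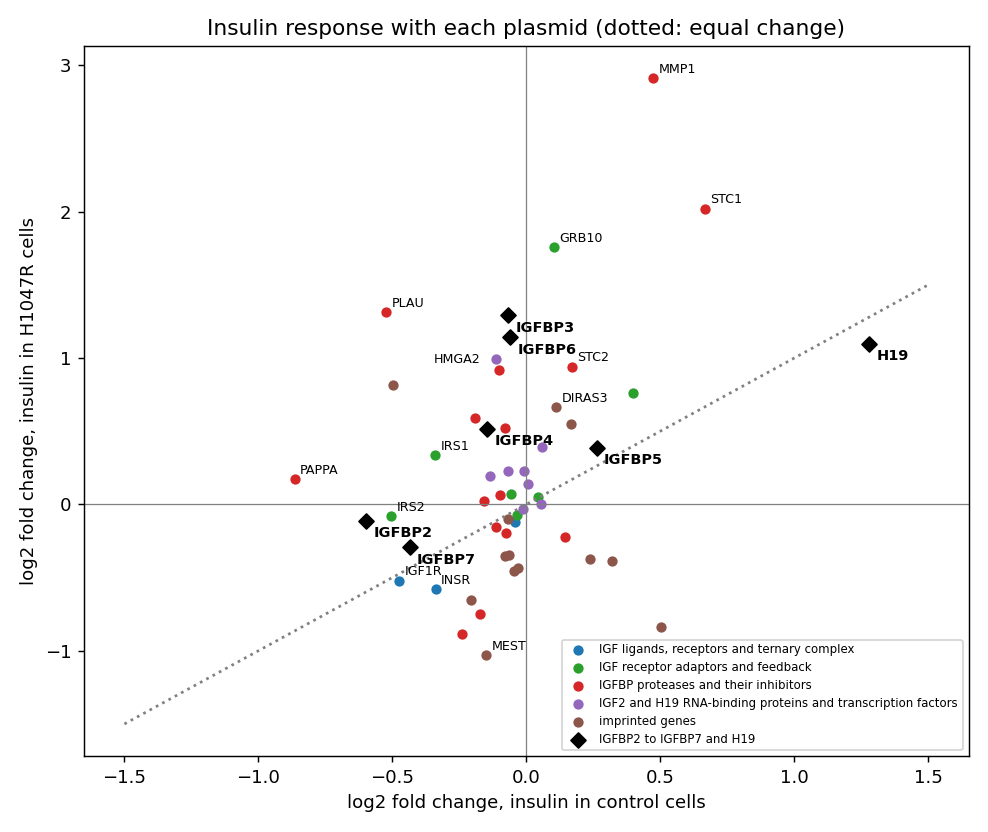
Log2 fold change with insulin in control cells (x) and in H1047R cells (y), which share no libraries, for the 7 tested genes (diamonds) and for genes of 5 IGF axis lists averaging at least 1 CPM (circles); the dotted line marks equal change. IGFBP3, IGFBP6 and IGFBP4 lie above the line near x = 0, whereas IGF1R, INSR, IGFBP7 and IGFBP5 lie close to it.

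Cell-surface and matrix partners of the IGFBPs were called in 9 of 13 genes with insulin in H1047R cells, 7 of them lower. The share over all genes tested was 19.6%. LRP1, a scavenger receptor that binds IGFBP3, fell (-0.69 ± 0.0425), as did the vitronectin gene VTN (-1.64 ± 0.157). In control cells 1 of the 13 was called, the fibronectin gene FN1 (-0.34 ± 0.0407), where 1.63% of all genes tested were called. Among 9 tested IGFBP-related genes, CCN2 fell under both plasmids (-1.09 ± 0.0539 and -0.58 ± 0.0510), as did CCN1 (-0.58 ± 0.0435 and -0.39 ± 0.0431) and CRIM1 (-0.23 ± 0.0427 and -0.34 ± 0.0426). In H1047R cells CCN3 rose (0.71 ± 0.0525) and IGFBPL1 fell (-1.08 ± 0.222). The IGFBPL1 change rested on few counts, 45, 43 and 51 with vehicle and 29, 21 and 44 with insulin.
The next 3 lists held 31 tested genes, of which 0 were called with insulin in control cells by edgeR or DESeq2 and 5 had an unadjusted p below 0.05. Of all genes tested 1.63% were called with insulin in control cells and 19.6% in H1047R cells, so the 0 says little about these lists. Of 9 genes that bind IGF2 or H19 RNA or regulate IGF2, 3 rose in H1047R cells. These were HMGA2, a chromatin protein that promotes IGF2 expression (0.99 ± 0.0701), IGF2BP1 (0.39 ± 0.0779) and IGF2BP2 (0.23 ± 0.0409), whose proteins bind IGF2 mRNA. IGF2 itself stayed at 8 counts in all. Of 14 tested imprinted genes, 2 rose in H1047R cells, DIRAS3 among them (0.66 ± 0.0852), and 6 fell, including MEST (-1.03 ± 0.0392) and NNAT (-0.66 ± 0.107). MEST, a growth-related imprinted gene, went from 904 ± 61.4 to 442 ± 7.97 CPM. Of 8 tested neighbours of IGF2 and H19 on 11p15, 3 were called in H1047R cells, where TSSC4 rose (0.33 ± 0.0641) and CD81 (-0.24 ± 0.0388) and NAP1L4 (-0.17 ± 0.0412) fell.
Of 23 tested factors that act on IGFBP genes, 3 were called with insulin in control cells, FOXO4 (-0.29 ± 0.0559), SMAD3 (-0.22 ± 0.0414) and FOXO3 (0.25 ± 0.0465). In H1047R cells 4 rose and 4 fell. The shares of all genes called with insulin were 1.63% in control cells and 19.6% in H1047R cells. As stated above, these lie below those of better expressed genes. The retinoic acid receptor gene RARA (0.64 ± 0.0654) and the immediate early gene EGR1 (0.61 ± 0.0568) rose, and FOXO4 fell (-0.66 ± 0.0571).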

How the data were processed

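RNA-seq counts were analysed for 12 libraries of 12Z cells in 4 groups of 3, made by the authors with an mRNA kit (500 ng of total RNA each) and sequenced as paired reads. The submitters' processing notes name cutadapt and Trim Galore for trimming and STAR for alignment (hg38), and the raw gene counts made by STAR were deposited without normalization. Tool versions were not given in the sources used here, and the annotation release named in the methods is a mouse release. Read pairs placed at several sites or shared by genes of the same strand are not counted for any gene. The first made up 8.48 to 9.51% of reads in H1047R insulin and 13.6 to 15.4% in the other groups, the second 3.31 to 3.61%. Unmapped and unassigned reads made up 3.12 to 4.09% and 3.91 to 4.55%. All 4 stayed out of library sizes.

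Following the study, the reverse-strand column was read, and it held 93.5 to 93.7% of stranded counts. All 22756 genes with a mean of 1 count or more per library were fitted with edgeR 4.0.16 in R 4.3.3 (TMM, glmQLFit, glmQLFTest), with 1 coefficient per group over all libraries and 8 residual degrees of freedom. Benjamini-Hochberg adjustment ran over all genes tested. The threshold (FDR below 0.001) and the filter were those of the study, which itself used DESeq2 with independent hypothesis weighting. All adjusted p-values are from this test unless DESeq2 1.42.0 is named. SE was taken as the size of the log2 fold change over the root of F, and 95% intervals use 8 degrees of freedom. CPM was scaled by TMM factors, and exon length was the union of exons in GENCODE v44 (hg38). Symbols came from a table of gene names that matched 60357 of 60617 IDs. The code was tested on simulated data. Limits at a count of 0 use 3 counts and cover counting error only.

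The 9 genes and the lists were chosen with earlier results of these data known. Named list genes are, in each comparison, up to 3 called members of a list with the largest change and at least 1 CPM, and genes named outside this rule are marked or were chosen after their values were seen. The latter are IGF2R, INSR in comparisons where it was not called, CCN1 and CRIM1 in H1047R cells, STC2 in the difference of insulin effects, RSAD2, the neighbours and the promoter measures. Some genes that the rule names are not reported here. No 2 libraries of a group looked like 1 library deposited again (chi-square per degree of freedom between their counts 2.70 to 5.90). The methods describe the 3 libraries of a group as independent experiments. Alternatives were other scaling, DESeq2, other filters, counts without regard to strand, fits of the compared groups alone, a replicate block, FDR below 0.05, and leaving out each library.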

Additional observations from a re-analysis of the deposited data

Results flagged for a closer look

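The insulin effect differed between the plasmids, by the interaction term of the edgeR fit at FDR below 0.001, for 4 genes. The effect in H1047R cells minus that in control cells was 1.36 on the log2 scale for IGFBP3, 1.20 for IGFBP6, 0.66 for IGFBP4 and 0.48 for IGFBP2. H1047R insulin libraries also held 3.06 times the PIK3CA level of H1047R vehicle libraries, and the part of this in the differences was not tested.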

How the results depend on the processing

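Of 524 refits of a member's change, 482 kept its direction and its side of the threshold, 31 lost a call and 5 gained one. The changes of IGFBP3, IGFBP4 and IGFBP6 with insulin in H1047R cells, with H1047R in insulin and in the interaction kept their calls in every refit. Directions turned for uncalled members only: when single libraries were left out, the change with H1047R in vehicle ran from -0.031 to 0.12 for IGFBP4 and from -0.029 to 0.67 for H19, both lowest without H1047R vehicle replicate 1. For H19, the change with H1047R in insulin ran from -0.036 (without control insulin replicate 1) to 0.36, and the interaction from -0.56 to 0.17, above 0 without control vehicle replicate 3, control insulin replicate 3 or H1047R vehicle replicate 1. The cause was not tested.

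The number of members called with insulin in control cells was 4, and 2 when genes had to reach 1 CPM in 3 libraries and 2 to 3 without single libraries. For H1047R in vehicle it was 1, and 0 with DESeq2 or that filter and 0 to 1 without single libraries. Genes called for H1047R in vehicle numbered 36, against 22 with DESeq2, 152 without a filter, 6 with the stricter one, 276 at FDR below 0.05 and 14 to 100 without single libraries. The IGF axis genes called there were 2, against 1 with DESeq2, 6 without a filter, 0 with the stricter one, 1 in a fit of these groups alone, 6 at FDR below 0.05 and 0 to 5 without single libraries. With insulin in control cells, all genes called were 372, against 1207 at FDR below 0.05 and 233 to 295 without single libraries (233 without control insulin replicate 2), and IGF axis genes were 15, against 24 and 8 to 11. FDR below 0.05 gave 7811 genes for insulin in H1047R cells, 8774 for H1047R in insulin and 4848 for the interaction, with 55 IGF axis genes there. Depth limits H19, IGFBP1 and IGF2.

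Replicate numbers did not pair the samples: deviations of libraries with the same number correlated at -0.0580 to 0.0873, 0 of 18 pairs over 0.1, and 6 of 18 matched best with their own number. The replicate block changed no member's call, with 4, 6, 1, 4 and 4 members called in the 5 comparisons.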
